A study of Mus musculus with 16 samples.

Results

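Stat3, its feedback inhibitor Socs3 and 8 secreted acute phase proteins (Crp, Apcs, Hp, Hpx, Itih3, Itih4, Lbp and Fgl1) were followed through tumor and peri-tumor mouse liver. The 10 genes were taken by name, as genes of the hepatic response to interleukin-6, out of 54838 genes in the deposited count table, and 10 of 10 had enough reads to be tested. The 16 RNA-seq libraries came from 8 mice, each giving 1 library of tumor and 1 of the liver around it (peri-tumor). The 4 groups of 4 libraries were tumors of TCM mice, peri-tumor liver of TCM mice, tumors of control mice and peri-tumor liver of control mice, where TCM stands for a decoction of traditional Chinese medicine. By the labels all mice, the controls too, carry HrasG12V, an activated oncogene, and the titles add 3 months without saying whether that is an age or a length of treatment. The treatment protocol names Ras transgenic mice together with mice given the carcinogen DEN, and whether these 8 mice received DEN is not stated. The sources used here give neither the promoter that drives the transgene nor what the decoction contained or its dose. The stated question was how the decoction acts against liver tumors.

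Interleukin-6 and its relatives bind a receptor that signals through gp130, the product of Il6st, and Janus kinases. These kinases phosphorylate STAT3, which enters the nucleus and, in hepatocytes, switches on genes of the acute phase response together with C/EBP factors. Socs3 is among the genes that STAT3 switches on, and its product blocks the receptor complex, which closes a feedback loop. The acute phase proteins are made mainly by hepatocytes and secreted into plasma, and in the mouse the pentraxin Apcs responds strongly to inflammation whereas Crp is a minor reactant.

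Promoters are shown for 3 of the secreted proteins, Apcs and Itih4 with the STAT half-site pair TTCNNNGAA and Crp without it. RefSeq promoters on GRCm38.p6 were held for 7 of the 10 genes (Stat3, Socs3, Crp, Apcs, Hpx, Itih3 and Itih4). Each sequence below is the 250 bases before the RefSeq start, read 5′ to 3′ on the strand of the gene, with the match to TTCNNNGAA in capitals. The Apcs window lies at chr1:172895055-172895304 on the minus strand, the Itih4 window at chr14:30886226-30886475 on the plus strand and the Crp window at chr1:172697806-172698055 on the plus strand.
Apcs: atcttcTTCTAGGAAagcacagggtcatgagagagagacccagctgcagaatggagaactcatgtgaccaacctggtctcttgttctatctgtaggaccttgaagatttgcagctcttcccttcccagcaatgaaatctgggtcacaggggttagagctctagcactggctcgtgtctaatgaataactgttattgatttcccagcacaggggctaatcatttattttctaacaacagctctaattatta
Itih4: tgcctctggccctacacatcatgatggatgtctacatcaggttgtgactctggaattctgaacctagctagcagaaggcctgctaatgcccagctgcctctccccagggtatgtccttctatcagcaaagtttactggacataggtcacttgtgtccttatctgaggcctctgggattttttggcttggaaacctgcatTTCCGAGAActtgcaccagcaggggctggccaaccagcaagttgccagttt
Crp: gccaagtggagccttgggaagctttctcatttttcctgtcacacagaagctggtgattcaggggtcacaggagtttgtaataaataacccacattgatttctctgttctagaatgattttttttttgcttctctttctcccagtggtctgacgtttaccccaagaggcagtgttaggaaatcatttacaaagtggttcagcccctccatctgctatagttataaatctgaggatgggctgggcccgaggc

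The motif reads the same on both strands, so each match counts for both. Apcs held TTCTAGGAA at -244 to -236 from its start and Itih4 held TTCCGAGAA at -51 to -43. Socs3 held TTCTTAGAA at -154 to -146, in a window at chr11:117969367-117969616 on the minus strand. The motif was thus found in 3 of 7 promoters, against 7.02% of all 32851 promoter windows of the same length. Crp, Hpx, Itih3 and Stat3 held no match. In TCM peri-tumor liver Apcs, Itih4 and Socs3, with a match, were called lower than in control mice. So were Hpx, Itih3 and Stat3, without a match, while Crp was not called. Whether the motif goes with the response was not tested. The stricter TTCCNGGAA was found in 0 of 7, against 0.913% of all windows. A C/EBP core motif, TTNNGNAA, searched on both strands and in no overlap with the STAT matches, was found in Stat3, Crp and Hpx, 3 of 7, against 36.8% of all windows; the Crp match was TTAGGAAA at -78 to -71. A match describes letters and not a bound site.

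In GENCODE M21 (GRCm38) all 10 genes are protein coding. Stat3 lies at chr11:100885098-100939540 and Socs3 at chr11:117966079-117970047, both on the minus strand. The Socs3 window searched above lies inside this span, because RefSeq starts the gene further downstream than GENCODE does. Among the pentraxins, Crp lies at chr1:172698055-172833031 on the plus strand and Apcs at chr1:172893961-172895041 on the minus strand. Hp lies at chr8:109575128-109579172 and Hpx at chr7:105591613-105600137, both on the minus strand. The inter-alpha-trypsin inhibitor genes stand next to each other on chromosome 14, Itih3 at chr14:30908572-30923760 on the minus strand and Itih4 at chr14:30886476-30902353 on the plus strand. Lbp lies at chr2:158306493-158332852 on the plus strand and Fgl1 at chr8:41191434-41215156 on the minus strand. Stat3 overlaps Stat5a on the opposite strand over 72 of its 54443 bases, the long Crp span holds the pseudogene Gm38051, and the other 8 genes overlap no annotated gene. At most 0.485% of the 50-base words of any of the 10 transcripts occurred in another gene.

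Total counts ran from 13947483 to 16194224 per library. Control mouse 4 stood apart. In its tumor the neutrophil markers summed to 147 CPM, against 5.85 to 11.3 CPM in the other 3 control tumors, and its peri-tumor library had the highest level of all 16 libraries for Apcs, Hp, Hpx, Itih3, Itih4 and Fgl1. Its Socs3 level ranked 5, its Crp level ranked 6 and its Lbp and Stat3 levels ranked 3. All 10 hepatocyte markers were read in every group, and their summed level ran from 96661 to 231650.0 CPM (counts scaled to a common library size) over the 16 libraries.

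On the scale of deposited FPKM, which divides by gene length, hemopexin (Hpx) and haptoglobin (Hp) led in the 4 groups. The Hpx level was 2575 ± 681 FPKM in TCM tumors, 1716 ± 96.4 FPKM in TCM peri-tumor liver, 3262 ± 159 FPKM in control tumors and 4702 ± 861 FPKM in control peri-tumor liver (SD, n = 4 each). In each group its range stood above that of Hp, and the Hp range stood above that of Itih4. The order below Itih4 differed between groups. Fgl1 was above Crp in both control groups, with no overlap of their ranges, and below Crp in TCM peri-tumor liver, again with no overlap, while their ranges overlapped in TCM tumors. Socs3 had the lowest mean level throughout, at 3.15 ± 1.57 FPKM in TCM tumors, 1.502 ± 1.31 FPKM in TCM peri-tumor liver, 4.95 ± 1.28 FPKM in control tumors and 7.85 ± 2.25 FPKM in control peri-tumor liver. In control peri-tumor liver its range overlapped that of Stat3, the next gene in the order. The lowest count behind any Socs3 value was 33 reads.

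**Figure D1:**
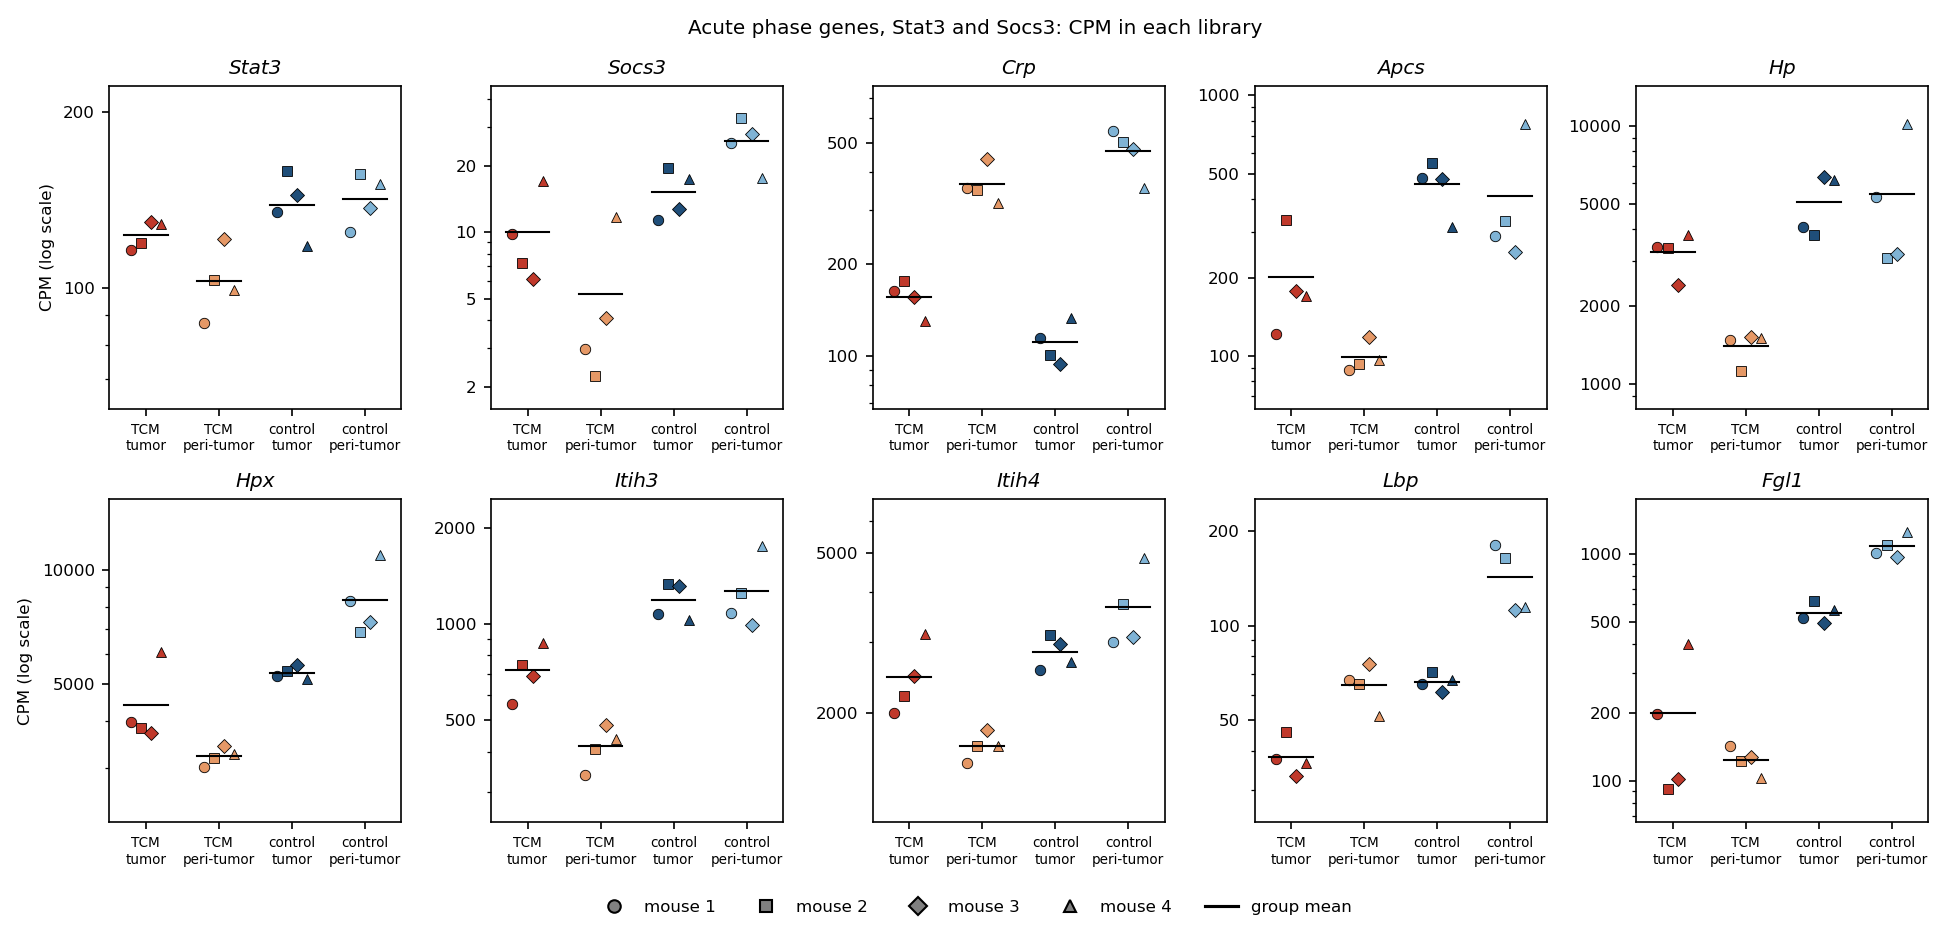
Level of each of the 10 genes in each library, in CPM on a log axis, for TCM tumor, TCM peri-tumor, control tumor and control peri-tumor tissue; the symbol gives the mouse and the line the mean of 4 libraries. TCM peri-tumor liver sits below control peri-tumor liver without overlap for 9 genes, and Crp is the exception.

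The decoction was first compared with control in peri-tumor liver, where the acute phase genes were lower almost throughout. Of the 10 genes, 9 were lower and 0 higher in TCM mice at an adjusted p under 0.05 (edgeR quasi-likelihood F test with Benjamini-Hochberg adjustment over all 14865 genes tested). Of all genes tested, 7.35% were lower and 6.71% higher, 14.1% in either direction. The median log2 fold change of the 10 was -1.49, against -0.0042 over all genes tested. The 4 TCM libraries lay below the 4 control libraries without overlap for 9 of the 10 genes, as they did for 8.86% of all genes tested, while 9.12% lay above without overlap. The 10 genes were chosen with earlier results of these data known, so these counts describe them and carry no test of their own. For TCM against control the libraries compared came from separate mice. The spread behind the p-values was pooled over all libraries of the fit, tumor and peri-tumor, which included both tissues of each mouse. Fitting only the groups compared called 1405 genes in place of 2091 in peri-tumor liver, with 9 of the 10 genes still called. In tumors it called 786 genes in place of 1082, and 2 of the 10 genes in place of 4. For tumor against peri-tumor liver both tissues came from the same mice, and the main fit treated their libraries as independent.

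Fgl1, a fibrinogen-related protein secreted by hepatocytes and a ligand of the immune receptor LAG3, had the largest difference among the 10. It had 142, 122, 127 and 103 CPM in the 4 TCM peri-tumor libraries, against 1012, 1088, 966 and 1241 CPM in the 4 control peri-tumor libraries. The highest TCM library was far below the lowest control library. The level was 8.71-fold lower in TCM mice, a log2 fold change of -3.12 (SE 0.36, adjusted p = 1.89e-04). Over 16 alternative settings the log2 fold change stayed between -3.19 and -3.04.

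Socs3 had 2.98, 2.23, 4.08 and 11.8 CPM in TCM peri-tumor liver, against 25.4, 32.9, 27.8 and 17.6 CPM in control peri-tumor liver. TCM mouse 4 was the highest of its group and control mouse 4 the lowest of its own, and the groups did not overlap. The log2 fold change was -2.29 (SE 0.442, adjusted p = 0.00459), and without TCM peri-tumor library 4 it was -3.07 (adjusted p = 6.77e-04). Stat3, which encodes the transcription factor itself, had 87.1, 103, 121 and 99.4 CPM in TCM peri-tumor liver, against 125, 157, 137 and 151 CPM in control peri-tumor liver. Its difference was the smallest among those called, with a log2 fold change of -0.47 (SE 0.117, adjusted p = 0.0166). It was not called without TCM peri-tumor library 1 (-0.40, adjusted p = 0.0567).

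The pentraxins, ring-shaped proteins that bind bacteria and cell debris, differed from each other. Apcs, serum amyloid P component, had 88.0, 92.8, 119 and 96.4 CPM in TCM peri-tumor liver, against 288, 329, 251 and 777 CPM in control peri-tumor liver. The groups did not overlap, and control mouse 4 was far above the other control mice. The log2 fold change of Apcs was -2.05 (SE 0.354, adjusted p = 0.00239). Crp, C-reactive protein, had 356, 349, 443 and 317 CPM in TCM peri-tumor liver, against 548, 502, 477 and 354 CPM in control peri-tumor liver. Here control mouse 4 had the lowest control level, inside the TCM range, and the difference was not called (log2 fold change -0.36, SE 0.154, adjusted p = 0.128). Without that library the Crp log2 fold change was -0.48 and was called (adjusted p = 0.0294). Whether Apcs and Crp differed from each other in their response was not tested.

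Haptoglobin binds free hemoglobin and hemopexin binds free heme, and both scavengers were lower in TCM mice. Hp had 1484, 1125, 1518 and 1508 CPM in TCM peri-tumor liver, against 5331, 3083, 3190.0 and 10227 CPM in control peri-tumor liver. The lowest control library was above each TCM library, and the log2 fold change was -1.95 (SE 0.334, adjusted p = 0.00226). Hpx had 3023, 3194, 3419 and 3272 CPM in TCM peri-tumor liver, against 8267, 6878, 7285 and 10998 CPM in control peri-tumor liver. The TCM libraries were close together, and the log2 fold change was -1.37 (SE 0.185, adjusted p = 5.91e-04).

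Itih3 and Itih4 encode heavy chains of the inter-alpha-trypsin inhibitor family, plasma proteins of which some bind hyaluronan. Itih3 had 338, 408, 484 and 438 CPM in TCM peri-tumor liver, against 1086, 1249, 996 and 1752 CPM in control peri-tumor liver, a log2 fold change of -1.61 (SE 0.191, adjusted p = 2.08e-04). Itih4 had 1499, 1657, 1812 and 1654 CPM in TCM peri-tumor liver, against 3006, 3738, 3088 and 4861 CPM in control peri-tumor liver, a log2 fold change of -1.15 (SE 0.177, adjusted p = 0.00124). Neither gene had overlapping groups. Lbp, which hands bacterial lipopolysaccharide to CD14, had 67.2, 65.1, 75.7 and 51.5 CPM in TCM peri-tumor liver, against 180.1, 164, 113 and 114 CPM in control peri-tumor liver. Its groups did not overlap either, and its log2 fold change was -1.14 (SE 0.16, adjusted p = 7.96e-04).

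Added up, the 8 secreted proteins took 0.683 ± 0.026% of all counts in TCM peri-tumor liver, against 2.05 ± 0.56% in control peri-tumor liver (SD, n = 4 each). The shares ran from 0.66% to 0.718% in TCM mice, against 1.62% to 2.87% in control mice. In tumors the shares were 1.17 ± 0.237% in TCM mice and 1.67 ± 0.199% in control mice.

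Markers of Kupffer cells, the resident liver macrophages, were also lower in TCM peri-tumor liver. Of 8 Kupffer cell markers, 6 were lower and 0 higher. Their summed level was 251 to 324 CPM in TCM peri-tumor liver, against 502 to 1124 CPM in control peri-tumor liver. Control mouse 4 had the lowest control sum, while its peri-tumor library had the highest Apcs, Hp, Hpx, Itih3, Itih4 and Fgl1 levels. Of 7 markers of recruited macrophages, 0 were called, with sums of 76.0 to 113 CPM in TCM peri-tumor liver, against 109.4 to 199 CPM in control peri-tumor liver. Of 9 neutrophil markers, 4 could be tested and 0 were called; the sums were 2.42 to 5.24 CPM in TCM peri-tumor liver, where Ngp, Camp and Ly6g had 0 counts, against 9.77 to 15.7 CPM in control peri-tumor liver, where Ly6g had 0 counts. Of 10 hepatocyte markers, 0 were called. Among them Alb, Ttr, Trf, Apoa1 and Ahsg are also negative acute phase proteins, which fall in inflammation, so those lists are not independent. The hepatocyte sums overlapped at 113030.0 to 175610.0 CPM in TCM peri-tumor liver and 96661 to 141670.0 CPM in control peri-tumor liver. The part of these cells in the levels of the 10 genes was not tested, and in bulk tissue fewer cells of a type and less RNA per cell cannot be told apart.

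**Figure D2:**
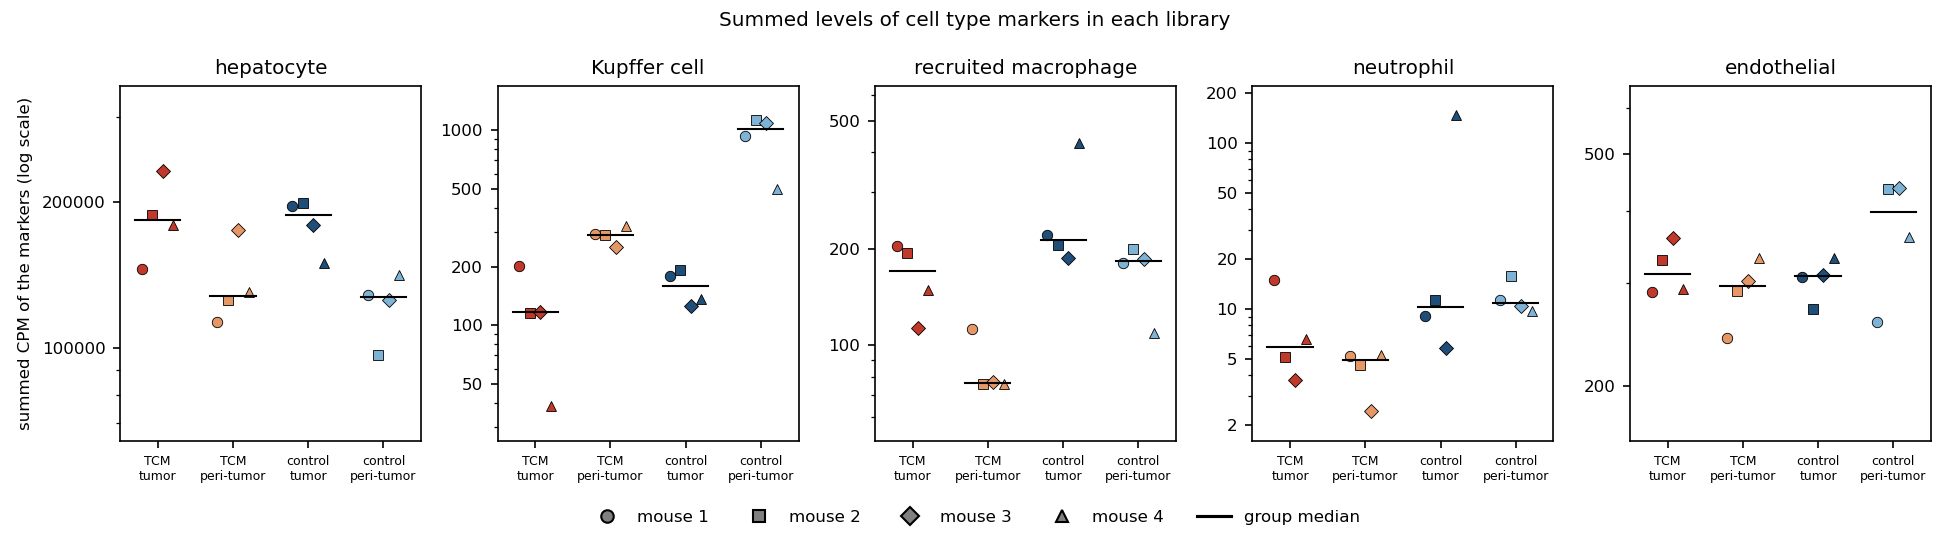
Summed level of the markers of 5 cell types in each library, in CPM on a log axis, by group, with the symbol for the mouse and the line for the group median. Kupffer cell markers sum to 251 to 324 CPM in TCM peri-tumor liver and 502 to 1124 CPM in control peri-tumor liver, whereas hepatocyte markers overlap between the treatments.

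Of the ligands upstream, Il6 itself had 9 counts over all 16 libraries and could not be tested, nor could Il11, Osm, Il27, Il22 and Tnf, which had 0 to 89 counts over all libraries. The other 5 of 11 ligands were tested and 0 were called in peri-tumor liver. Of 12 receptor genes, 5 were lower and 0 higher in TCM peri-tumor liver. The ligand-binding receptor Il6ra averaged 35.8 ± 14.9 CPM in TCM peri-tumor liver, against 107 ± 26.7 CPM in control peri-tumor liver (log2 fold change -1.58, adjusted p = 0.0118). The oncostatin M receptor Osmr (-1.40, adjusted p = 0.0153), the interleukin-1 receptor Il1r1 (-1.03, adjusted p = 0.0101), the TNF receptor Tnfrsf1a (-0.40, adjusted p = 0.0185) and Il6st (-0.56, adjusted p = 0.0354) were also lower. The Il6st call was lost without any 1 of TCM libraries 1, 2 and 3 or control libraries 2 and 3 (adjusted p up to 0.108), and the Osmr call without control library 2 (-1.02, adjusted p = 0.0543). Of 6 kinases and adaptors, among them Jak1 and Jak2, 0 were called.

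Among the other inhibitors, 1 of 11 tested was lower, the phosphatase Ptpn1 (-0.79, adjusted p = 0.00144). Of 14 transcription factors, 4 were lower and 0 higher. Among them were Cebpd (-1.20, adjusted p = 0.00185) and Cebpb (-0.93, adjusted p = 0.00881), C/EBP factors of the acute phase response, and Stat2 (-0.51, adjusted p = 0.021). Of 15 other STAT3 target genes, 2 were lower and 1 higher. The adhesion molecule Icam1 (-1.47, adjusted p = 0.00139) and Bcl3 (-1.10, adjusted p = 0.00845) were lower, and the AP-1 subunit Junb was higher (0.85, adjusted p = 0.0441). The Junb call was lost without any 1 of TCM libraries 3 and 4 or control libraries 1, 2 and 3 (adjusted p up to 0.139).

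Of 24 other positive acute phase proteins, 15 were lower and 0 higher in TCM peri-tumor liver, with a median log2 fold change of -1.20 over the 24. Lipocalin Lcn2 averaged 7.50 ± 3.68 CPM in TCM peri-tumor liver, against 348 ± 280.2 CPM in control peri-tumor liver (log2 fold change -5.54, adjusted p = 1.89e-04). The serum amyloid genes Saa1 (-6.84, adjusted p = 0.00348) and Saa2 (-8.12, adjusted p = 0.00633) share 32.1% and 31.8% of their 50-base words with other genes, so that their reads may be split. Without control peri-tumor library 4 the log2 fold changes were -4.80 for Lcn2, -4.60 for Saa1 and -4.85 for Saa2, each still called. Of 8 negative acute phase proteins, which fall in inflammation, 0 were called, and albumin (Alb) averaged 89985 ± 19096 CPM in TCM peri-tumor liver and 67377 ± 11700.0 CPM in control peri-tumor liver (adjusted p = 0.256).

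Genes whose products act with the 10 were lower in 8 of 16 tested and higher in 0. The haptoglobin-hemoglobin receptor Cd163, which is also among the Kupffer cell markers, averaged 17.2 ± 3.81 CPM in TCM peri-tumor liver, against 58.2 ± 20.3 CPM in control peri-tumor liver (log2 fold change -1.76, adjusted p = 0.0142). Heme oxygenase Hmox1, which degrades heme, averaged 15.0 ± 1.59 CPM in TCM peri-tumor liver, against 50.6 ± 17.9 CPM in control peri-tumor liver (-1.75, adjusted p = 0.00397). The Fc receptors Fcgr1 (-1.84, adjusted p = 0.00173) and Fcgr3 (-1.67, adjusted p = 9.95e-04), which also bind pentraxins, and their signalling chain Fcer1g (-1.48, adjusted p = 0.00315) were lower. Ambp, which encodes the bikunin chain of inter-alpha-trypsin inhibitor, was lower (-0.79, adjusted p = 0.0107). The heavy chain Itih1 was lower by less (-0.46, adjusted p = 0.043), and its call was lost without any 1 of the 8 peri-tumor libraries (adjusted p 0.0634 to 0.117). The heavy chain Itih2 averaged 1016 ± 167 CPM in TCM peri-tumor liver and 1127 ± 165 CPM in control peri-tumor liver and was not called (adjusted p = 0.628).

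**Figure D3:**
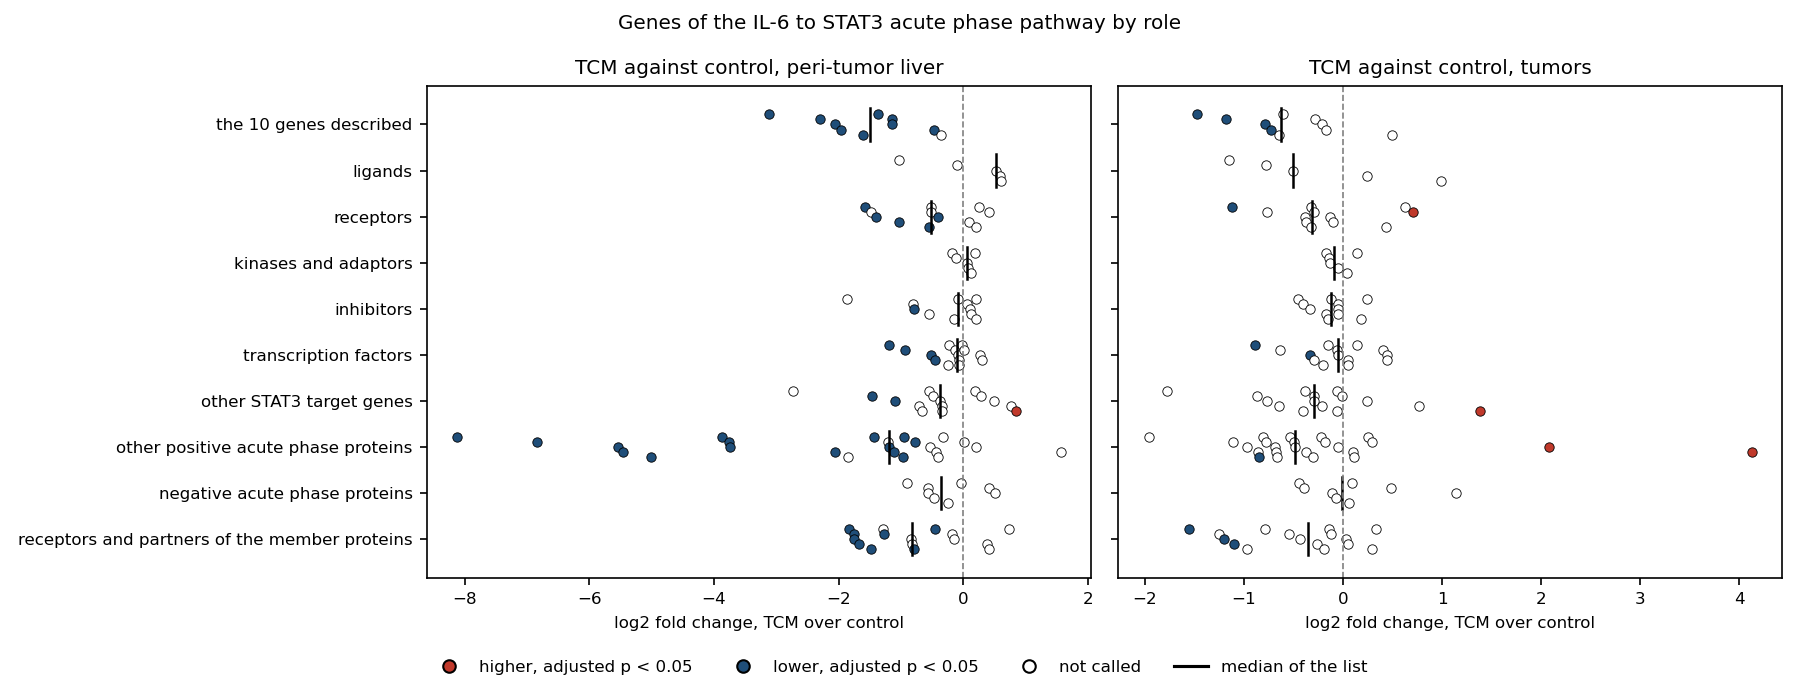
Log2 fold change of TCM over control for the 10 genes and for 9 lists of pathway genes by role, in peri-tumor liver and in tumors; each point is a gene, filled where called, and the line is the median of the list. In peri-tumor liver 9 of the 10 genes and 15 of 24 other positive acute phase proteins are called lower, against 4 of 10 and 1 of 24 in tumors.

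In tumors, the same comparison of TCM with control gave fewer calls. Of the 10 genes, 4 were lower (Apcs, Itih3, Lbp and Fgl1) and 0 higher in TCM tumors, against 2.72% lower and 4.55% higher of all genes tested, 7.28% in either direction. The median log2 fold change of the 10 was -0.62, against 0.002 over all genes tested. The groups did not overlap for Itih3, Lbp and Fgl1, all lower, against 7.04% of all genes tested, with 8.83% of all genes higher without overlap.

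Lbp had 37.6, 45.8, 33.3 and 36.5 CPM in TCM tumors, against 65.4, 71.2, 61.3 and 67.2 CPM in control tumors. The TCM tumors were all below the control tumors (log2 fold change -0.79, SE 0.16, adjusted p = 0.011), and the call held over 16 alternative settings (adjusted p at most 0.0498). Fgl1 had 198, 92.6, 101.9 and 401 CPM in TCM tumors, against 521, 622, 494 and 563 CPM in control tumors. The TCM tumors were widely spread, from 92.6 to 401 CPM, and still below each control tumor (-1.47, SE 0.339, adjusted p = 0.0188). The Fgl1 call was lost without TCM tumor 3 (-1.25, adjusted p = 0.0566) and without control tumor 2 (-1.39, adjusted p = 0.0551).

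Itih3 had 563, 748, 689.6 and 872 CPM in TCM tumors, against 1074, 1335, 1318.5 and 1029.8 CPM in control tumors (log2 fold change -0.73, SE 0.188, adjusted p = 0.0305). Its groups stood apart, and its call was lost without any 1 of tumors 1, 2 and 3 of either treatment (adjusted p 0.0519 to 0.0926). Apcs had 122, 334, 177 and 170.5 CPM in TCM tumors, against 480.4, 552, 477 and 312 CPM in control tumors. TCM mouse 2 was above control mouse 4, and the log2 fold change was -1.18 (SE 0.345, adjusted p = 0.0493). Its call was lost without any 1 of TCM tumors 1, 3 and 4 or control tumors 1, 2 and 3 (adjusted p 0.0989 to 0.129). The count of 4 called genes was 2 without TCM tumor 1, control tumor 1 or control tumor 3, and 1 without TCM tumor 3 or control tumor 2.

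The other 6 genes were not called in tumors. Crp was the only 1 of the 10 with a higher mean in TCM tumors. It had 163, 176, 155 and 130.2 CPM in TCM tumors, against 114, 100.9, 94.0 and 133 CPM in control tumors, and TCM tumor 4 was just below control tumor 4 (log2 fold change 0.50, SE 0.155, adjusted p = 0.0631). It was called without TCM tumor 4 (0.60, adjusted p = 0.0354) and without control tumor 4 (0.61, adjusted p = 0.0328). Socs3 had 9.78, 7.26, 6.13 and 17.1 CPM in TCM tumors, against 11.4, 19.5, 12.7 and 17.4 CPM in control tumors (-0.60, adjusted p = 0.403). Stat3 had 116, 119, 129.8 and 129 CPM in TCM tumors, against 135, 158, 144 and 118 CPM in control tumors (-0.17, adjusted p = 0.389), with a 95% interval of -0.42 to 0.08.

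Hp ran from 2422 to 3796 CPM in TCM tumors, against 3774 to 6378 CPM in control tumors (-0.65, adjusted p = 0.229). Hpx ran from 3714 to 6069 CPM in TCM tumors, against 5137 to 5623 CPM in control tumors (-0.28, adjusted p = 0.355). Itih4 ran from 2001 to 3134 CPM in TCM tumors, against 2559 to 3133 CPM in control tumors (-0.21, adjusted p = 0.491). For each of these 3 genes 1 TCM tumor was above the lowest control tumor.

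Among the pathway genes in tumors, 0 of 5 ligands, 0 of 6 kinases and adaptors, 0 of 11 inhibitors and 0 of 8 negative acute phase proteins were called. Of 12 receptors, Osmr was lower in TCM tumors (-1.11, adjusted p = 0.0419) and Il11ra1 higher (0.71, adjusted p = 0.00504); 60% of the 50-base words of Il11ra1 occurred in other genes. The Osmr call was lost without any 1 of tumors 1, 2 and 3 of either treatment (adjusted p 0.0677 to 0.125). Of 14 transcription factors, Cebpd (-0.89, adjusted p = 0.0172) and Nfkb1 (-0.33, adjusted p = 0.0417) were lower. The Cebpd call was lost without TCM tumor 3 (-0.78, adjusted p = 0.0599) and without control tumor 2 (-0.85, adjusted p = 0.0523). Of 24 other positive acute phase proteins, 1 was lower and 2 were higher. The 3 genes lower among 16 partners were Fcgr1 (-1.55, adjusted p = 0.00964), Fcgr3 (-1.10, adjusted p = 0.0163) and Fcer1g (-1.20, adjusted p = 0.0163), and Fcer1g was not called without TCM tumor 3 (-1.14, adjusted p = 0.0551). Of 7 markers of recruited macrophages, 3 were lower and 0 higher in TCM tumors, with sums of 113 to 204 CPM in TCM tumors, against 188 to 427 CPM in control tumors. The part of those cells in these differences was not tested.

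**Figure D4:**
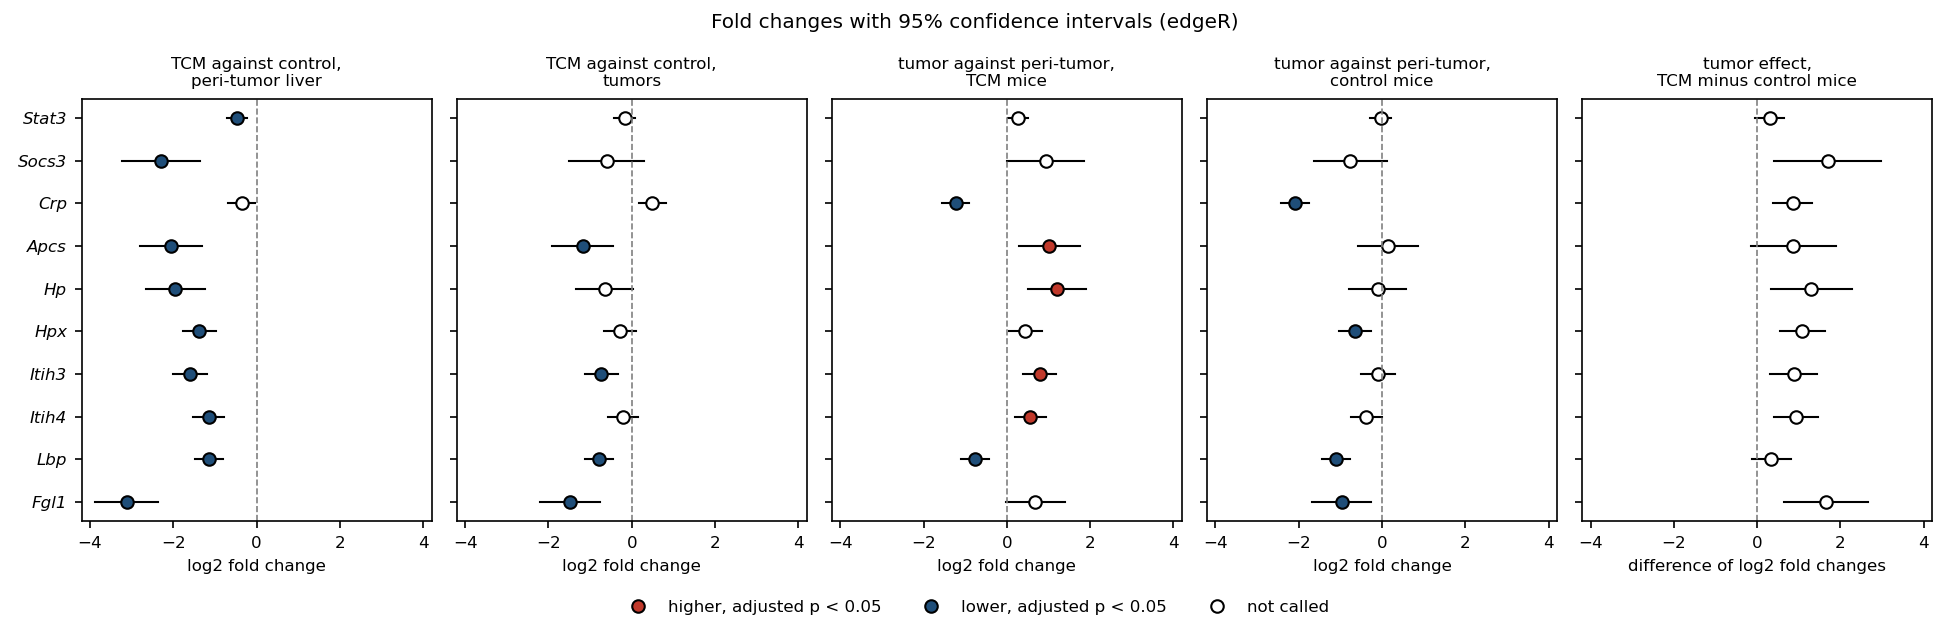
Log2 fold change of each of the 10 genes with its 95% confidence interval in the 4 comparisons and in the last panel for TCM minus control of the tumor effect; filled points have an adjusted p under 0.05 and open points were not called. In peri-tumor liver 10 of 10 estimates are below 0 and 9 are called, and in the difference of the tumor effect 10 of 10 estimates are above 0 and none is called.

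Tumor was then compared with peri-tumor liver within each treatment; the 4 comparisons share groups in pairs, so their values stand side by side and are not independent of each other. In TCM mice 4 of the 10 genes were higher in tumor and 2 lower, against 17.3% higher and 15.6% lower of all genes tested, 32.9% in either direction. In control mice 0 were higher and 4 lower, against 22% higher and 21.2% lower of all genes tested, 43.2% in either direction. The median log2 fold change of tumor over peri-tumor liver was 0.62 in TCM mice, against 0.0043 over all genes tested, and -0.51 in control mice, against 0.001 over all genes tested. In TCM mice the libraries did not overlap for 5 genes that were higher in tumor and 2 that were lower, against 17.3% and 16.6% of all genes tested. In control mice they did not overlap for 4 that were lower and 0 that were higher, against 18.8% and 20% of all genes tested.

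Crp and Lbp were lower in tumor than in peri-tumor liver in both treatments and in 8 of 8 mice. The log2 fold change of Crp was -1.23 in TCM mice (SE 0.157, adjusted p = 3.09e-05) and -2.09 in control mice (SE 0.161, adjusted p = 1.69e-07). Tumor and peri-tumor levels of Crp did not overlap in either treatment. For Lbp the log2 fold change was -0.76 in TCM mice (SE 0.16, adjusted p = 0.00187) and -1.11 in control mice (SE 0.16, adjusted p = 5.04e-05). The tumors of both treatments were again below the peri-tumor livers without overlap.

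The genes higher in the tumors of TCM mice were Apcs, Hp, Itih3 and Itih4, each in 4 of 4 mice. Hp had a log2 fold change of 1.21 in TCM mice (SE 0.327, adjusted p = 0.00974) and of -0.10 in control mice (adjusted p = 0.833). Itih3 had 0.78 in TCM mice (SE 0.188, adjusted p = 0.00446) and -0.10 in control mice (adjusted p = 0.713). Itih4 had 0.57 in TCM mice (SE 0.175, adjusted p = 0.0207) and -0.38 in control mice (adjusted p = 0.0967). The Itih4 call in TCM mice was lost without TCM tumor 4 (0.44, adjusted p = 0.0705) and without TCM peri-tumor library 1 (0.52, adjusted p = 0.061). Apcs had 1.02 in TCM mice (SE 0.345, adjusted p = 0.0321) and 0.15 in control mice (adjusted p = 0.759). In control mice 1 to 4 the tumor minus peri-tumor difference of Apcs in log2 CPM was 0.74, 0.75, 0.93 and -1.31, so that mouse 4 alone was below 0. Without both libraries of control mouse 4, Apcs was called higher in control tumors too (0.77, adjusted p = 0.0351). With the mouse as a block the Apcs call in TCM mice was lost (0.92, adjusted p = 0.0695), as it was without TCM tumor 2 (0.67, adjusted p = 0.13) or without any 1 of TCM peri-tumor libraries 1, 2 and 4 (adjusted p 0.0675 to 0.0785).

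Hpx and Fgl1 were lower in the tumors of control mice, in 4 of 4 mice each. Hpx had a log2 fold change of 0.45 in TCM mice (SE 0.182, adjusted p = 0.0721) and of -0.64 in control mice (SE 0.183, adjusted p = 0.00978). Its tumor and peri-tumor levels did not overlap in either treatment, with the tumors above in TCM mice and below in control mice. Without both libraries of control mouse 4, which belong to neither group compared, Hpx was called higher in TCM tumors (0.46, adjusted p = 0.0331). Fgl1 had 0.68 in TCM mice (SE 0.334, adjusted p = 0.133) and -0.97 in control mice (SE 0.335, adjusted p = 0.0281). The control call of Fgl1 was lost without control tumor 1 (-0.97, adjusted p = 0.0552), control tumor 3 (-0.94, adjusted p = 0.0601) or control peri-tumor library 4 (-0.90, adjusted p = 0.0572), and without both libraries of control mouse 4 (-0.94, adjusted p = 0.0766). In TCM mice Fgl1 was called without TCM tumor 2 (0.92, adjusted p = 0.0311) or TCM tumor 3 (0.90, adjusted p = 0.0464), the 2 tumors in which it was lower than in the peri-tumor liver of the same mouse.

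Socs3 and Stat3 were called in neither treatment. Socs3 had a log2 fold change of 0.93 in TCM mice (SE 0.439, adjusted p = 0.118) and of -0.76 in control mice (SE 0.415, adjusted p = 0.151). With the mouse as a block it was called in both, at 1.10 in TCM mice (adjusted p = 0.00966) and -0.76 in control mice (adjusted p = 0.0266). Without TCM peri-tumor library 4, the highest of its group, it was also called in TCM mice (1.70, adjusted p = 0.00277). Stat3 had 0.27 in TCM mice (SE 0.117, adjusted p = 0.0921) and -0.03 in control mice (SE 0.116, adjusted p = 0.848). Without TCM peri-tumor library 3 it was called in TCM mice (0.36, adjusted p = 0.0327).

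Within a mouse, the tumor minus peri-tumor difference in log2 CPM had opposite signs in the treatments for Socs3, Hpx and Itih4. Socs3 differed by 1.68, 1.65, 0.57 and 0.54 in TCM mice 1 to 4, against -1.15, -0.75, -1.12 and -0.01 in control mice 1 to 4. Hpx differed by 0.40, 0.26, 0.12 and 0.89 in TCM mice, against -0.65, -0.35, -0.37 and -1.10 in control mice. Itih4 differed by 0.42, 0.41, 0.45 and 0.92 in TCM mice, against -0.23, -0.26, -0.06 and -0.86 in control mice. All TCM mice were above 0 and all control mice below it for these 3 genes, with control mouse 4 nearly at 0 for Socs3 and farthest below 0 for Hpx and Itih4. The share of all genes tested with such a split was not counted.

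**Figure D5:**
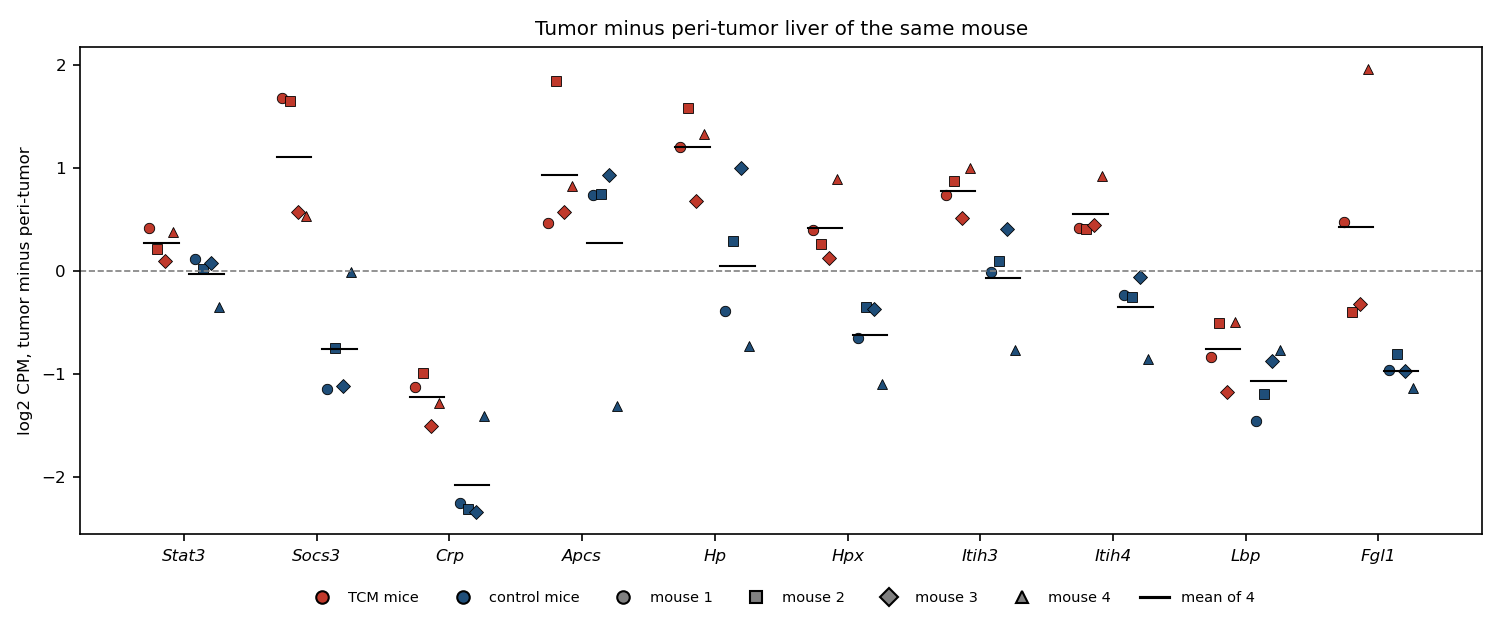
Tumor minus peri-tumor difference in log2 CPM within each mouse for the 10 genes, with TCM mice left of control mice, the symbol for the mouse and the line for the mean of 4. Crp and Lbp lie below 0 in 8 of 8 mice, and Socs3, Hpx and Itih4 lie above 0 in 4 TCM mice and below 0 in 4 control mice. How common such patterns are among all genes was not counted.

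The test of the difference itself, the tumor effect in TCM minus that in control mice, called 0 of the 10 genes with edgeR, against 1.11% of all genes tested, 0.706% positive and 0.404% negative. DESeq2 called 5 of the 10 and limma-voom 4, where over all genes they called 806 and 603, against 165 with edgeR. All 10 estimates were positive, from 0.30 for Stat3 to 1.69 for Socs3, with a median of 0.91, against 0.0305 over all genes tested. The share of all genes with a positive estimate was not counted. The estimates were 1.69 for Socs3 (SE 0.604, adjusted p = 0.159), 1.65 for Fgl1 (SE 0.473, adjusted p = 0.0879), 1.31 for Hp (SE 0.458, adjusted p = 0.154) and 1.09 for Hpx (SE 0.258, adjusted p = 0.0538). They were 0.94 for Itih4 (adjusted p = 0.0702), 0.88 for Itih3 (adjusted p = 0.103), 0.87 for Apcs (adjusted p = 0.373), 0.86 for Crp (adjusted p = 0.0656) and 0.35 for Lbp (adjusted p = 0.456). Leaving out single libraries gave 0 to 2 calls. Crp was called without TCM tumor 4 (0.97, adjusted p = 0.0402), control tumor 4 (0.98, adjusted p = 0.0393) or control peri-tumor library 4 (0.97, adjusted p = 0.0165). Hpx was called without TCM tumor 2 (1.18, adjusted p = 0.0468), TCM tumor 4 (0.93, adjusted p = 0.0457) or control peri-tumor library 4 (0.93, adjusted p = 0.0348). Socs3 was called without TCM peri-tumor library 4 (2.47, adjusted p = 0.0238) and Fgl1 without TCM tumor 2 (1.92, adjusted p = 0.0424).

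In the pathway lists, the interleukin-6 family ligands Lif and Clcf1 were higher in tumor in both treatments, and the other 3 of 5 ligands tested were not called. Lif averaged 3.97 ± 2.10 CPM in TCM tumors, against 0.0509 ± 0.0625 CPM in TCM peri-tumor liver, and 8.83 ± 2.62 CPM in control tumors, against 0.116 ± 0.101 CPM in control peri-tumor liver. Clcf1 had a log2 fold change of 2.21 in TCM mice (adjusted p = 3.09e-04) and of 3.58 in control mice (adjusted p = 3.22e-06). Of 12 receptors, 3 were higher and 2 lower in the tumors of TCM mice, and 2 higher and 5 lower in those of control mice. Osmr was higher in both, at 1.88 in TCM mice (adjusted p = 6.10e-04) and 1.59 in control mice (adjusted p = 8.30e-04). The LIF receptor Lifr was lower in both, at -0.98 in TCM mice (adjusted p = 0.00226) and -1.17 in control mice (adjusted p = 3.78e-04). Il6ra had -0.08 in TCM mice (adjusted p = 0.891) and was lower in the tumors of control mice (-1.34, adjusted p = 0.00742). Jak1 was higher in the tumors of TCM mice (0.36, adjusted p = 0.0086) and of control mice (0.36, adjusted p = 0.00677).

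Of 15 other STAT3 target genes, 8 were higher and 0 lower in the tumors of TCM mice, and 9 higher and 1 lower in those of control mice. The protease inhibitor Timp1 had a log2 fold change of 4.99 in TCM mice (adjusted p = 0.001) and of 4.03 in control mice (adjusted p = 1.76e-04). The change was 4.24 in TCM mice without TCM tumor 1 and 3.25 in control mice without both libraries of control mouse 4, each still called. With limma-voom it was 3.97 in TCM mice. Timp1 counts summed to only 2 over the TCM peri-tumor libraries and 17 over the control peri-tumor libraries, so the size of these changes is uncertain. Of 24 other positive acute phase proteins, 8 were higher and 3 lower in the tumors of TCM mice, and 2 higher and 12 lower in those of control mice. In the test of the difference of the tumor effect, 4 of these 24 were called, all positive, which were Mt1 (4.24, adjusted p = 0.00232), Mt2 (4.49, adjusted p = 0.00544), Lcn2 (4.43, adjusted p = 0.01) and Saa4 (1.30, adjusted p = 0.00618). Without control peri-tumor library 4 the Lcn2 difference was 3.69, without TCM tumor 4 it was 3.84, and without control tumor 4 the Mt2 difference was 5.38, each still called. Of 14 transcription factors, 2 were higher and 1 lower in the tumors of TCM mice, and 3 higher and 3 lower in those of control mice. Nfkb2 was higher in the tumors of TCM mice (1.43, adjusted p = 1.67e-07) and of control mice (1.47, adjusted p = 6.04e-08). Cebpb had -0.54 in TCM mice (adjusted p = 0.0528) and was lower in the tumors of control mice (-1.27, adjusted p = 1.35e-04). Among the partners, Cd14, the receptor that takes lipopolysaccharide from Lbp, was higher in the tumors of TCM mice (3.18, adjusted p = 3.09e-06) and of control mice (3.15, adjusted p = 1.04e-06), while Lbp was lower. Cd163 was lower in the tumors of TCM mice (-1.81, adjusted p = 0.00543) and of control mice (-3.62, adjusted p = 1.71e-05). Kupffer cell markers as a list were lower in 5 of 8 in the tumors of TCM mice, with sums of 38.5 to 200.2 CPM in tumor against 251 to 324 CPM in peri-tumor liver, and in 8 of 8 in those of control mice, with sums of 125 to 191 CPM in tumor against 502 to 1124 CPM in peri-tumor liver. Markers of recruited macrophages were higher in 5 of 7 in TCM mice and in 6 of 7 in control mice.

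Markers of other cell types moved between tumor and peri-tumor liver as well. The 6 cholangiocyte markers summed to 413 to 1236 CPM in TCM tumors, against 32.7 to 63.1 CPM in TCM peri-tumor liver, and to 899 to 2227 CPM in control tumors, against 33.0 to 88.1 CPM in control peri-tumor liver. Of the 4 that could be tested, 2 were higher and 0 lower in the tumors of TCM mice, and 2 higher and 1 lower in those of control mice. The median log2 fold change of the 4 was 0.707 in TCM mice and 0.935 in control mice, so the sums do not stand for each marker. Of 8 stellate cell and fibroblast markers, 4 were higher and 2 lower in the tumors of TCM mice, and 4 higher and 1 lower in those of control mice. Of 10 hepatocyte markers, 3 were higher and 3 lower in the tumors of TCM mice, and 4 higher and 3 lower in those of control mice. The part of any of these cells in the tumor levels of the 10 genes was not tested.

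Genes with a pattern most like that of 3 members were sought among 9491 other genes over the 16 libraries, by the root mean square difference of log2 CPM after each gene was centred on its own mean. The nearest to Stat3 were Gimap9 at 0.13, Dad1 at 0.14 and Kmt2b at 0.14, where the spread of Stat3 about its own mean was 0.23. The nearest to Socs3 were Abcg1, Sbk1 and Wee1, at 0.59 to 0.63, against a spread of 1.09. The nearest to Crp were Hgd at 0.20, Adhfe1 at 0.20 and Hpgd at 0.21, against a spread of 0.88. Hgd averaged 172 ± 22.1 CPM in TCM tumors, 430 ± 18.5 CPM in TCM peri-tumor liver, 116 ± 9.81 CPM in control tumors and 466 ± 84.6 CPM in control peri-tumor liver, the order of levels that Crp had. These are descriptions with no test.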

How the data were processed

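RNA from tumors and the liver around them in 8 mice was made into 16 stranded mRNA libraries, per the labels' protocols. The deposited table holds raw read counts per gene, whole numbers that were not scaled, per the file headers. The authors' deposited FPKM values divide the counts by gene length and library total; counts over FPKM gave 1 length per gene in all libraries to within 0.00193% over 9176 genes, and FPKM served only to compare levels between genes. Both mm9 and mm10 are listed as genome builds, per the submitters' processing notes. The sources used here name no aligner, counting tool or strand setting. Of 54838 genes 115 had no symbol, and 0 other columns of per-sample values were left unused.

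Counts were tested with edgeR 4.0.16 in R 4.3.3, using TMM factors, filterByExpr with a count minimum of 10, and quasi-likelihood F tests on 14865 genes. The 16 libraries entered together, with 12 residual degrees of freedom. Genes were called at a Benjamini-Hochberg adjusted p under 0.05 over all genes tested. Fold changes are tumor over peri-tumor or TCM over control, on the log2 scale. CPM are counts over the TMM-scaled library total, and SE is the size of the log2 fold change divided by the root of F. The test was tried on simulated counts with known changes. The 10 genes and the lists of pathway genes and cell markers were chosen with earlier results of these data known. Besides the 10, up to 4 called genes per list and comparison could be named, by lowest p and with at least 1 CPM on average in the higher group, plus Il6, Il6ra, Il6st, Jak1, Jak2, Cebpb, Itih1, Itih2, Ambp, Saa1, Saa2 and Alb. Cd163 in peri-tumor liver and in the tumors of TCM mice fell outside this rule and was chosen after its values were seen.

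The animal codes tie both tissues to their mouse. With group means removed, the tissues of a mouse correlated at 0.0433 to 0.235, and 7 of 8 mice correlated best with themselves, so the mouse was tried as a block. TCM and control mice share only a replicate number. Within each group no library was a copy of another (chi-square per degree of freedom at least 16.3), and pairs across groups were not checked. The alternatives tried were DESeq2 1.42.0, limma-voom 3.58.1 with sample weights, RLE factors, testing without a filter or with 1 CPM required in 4 libraries, fitting only the groups compared, the blocks, and leaving out each library or both libraries of control mouse 4. Nearest patterns were sought with a prior count of 2 among genes averaging at least 5 CPM. Promoters come from RefSeq, and shared 50-base words from GENCODE M21 transcripts.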

Additional observations from a re-analysis of the deposited data

Results flagged for a closer look

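In groups of 4 libraries, 3 of 40 had a highest or lowest library whose gap to the next was a larger part of the range than Dixon's 95% limit allows, which chance gives in about 1 group in 20. Apcs had 777 CPM in control peri-tumor library 4, against 251 to 329 CPM in the other 3 control peri-tumor libraries. Hp had 1125 CPM in TCM peri-tumor library 2, against 1484 to 1518 CPM in the other 3. Hpx had 6069 CPM in TCM tumor 4, against 3714 to 3976 CPM in the other 3 TCM tumors.

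For 3 genes every TCM mouse had a higher level in tumor than in peri-tumor liver and every control mouse a lower level. How many of all genes tested split in this way was not counted, so the 3 are a description only. The difference of the tumor effect, TCM minus control, was 1.69 for Socs3 (adjusted p = 0.159), 1.09 for Hpx (adjusted p = 0.0538) and 0.94 for Itih4 (adjusted p = 0.0702). None was called in the main edgeR fit or with the mouse as a block. With the 1 CPM filter edgeR called Hpx (adjusted p = 0.045). DESeq2 called Hpx (adjusted p = 7.39e-04) and Itih4 (adjusted p = 0.00568). Limma-voom called Socs3 (adjusted p = 0.046), Hpx (adjusted p = 0.0179) and Itih4 (adjusted p = 0.0325).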

How the results depend on the processing

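For the 10 genes over the 5 comparisons, 783 of the alternative values kept their direction and their side of the threshold, 41 crossed into a call, 34 lost a call and 12 changed sign. The sign changes were all in tumor against peri-tumor liver of control mice, in genes that were not called. With limma-voom, Stat3 was 0.016, Itih3 0.073 and Hp 0.232. Without both libraries of control mouse 4, Stat3 was 0.033, Itih3 0.129 and Hp 0.26, and Apcs moved to 0.765 and into a call (adjusted p = 0.0351). Leaving out single libraries gave Stat3 -0.118 to 0.026 (positive without control tumor 4), Itih3 -0.196 to 0.098 (positive without control peri-tumor 4), Hp -0.316 to 0.396 (positive without control peri-tumor 4 and, at 0.004, without control tumor 2) and Apcs -0.028 to 0.654 (negative without control peri-tumor 3). The cause was not tested.

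With the mouse as a block, Hp in control mice was 0.039, and the difference of the tumor effect gave 107 genes in place of 165; the calls it changed stand in the report. With the replicate number as a block, which pairs no animals, TCM against control gave 773 genes in place of 2091 in peri-tumor liver and 38 in place of 1082 in tumors, where 1 of the 10 genes was called in place of 4; it made Stat3 lose its call in peri-tumor liver (-0.48, adjusted p = 0.0635).

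For TCM against control in peri-tumor liver, limma-voom called 3349 genes and leaving out both libraries of control mouse 4 gave 3434. Leaving out single libraries gave 1101 to 3228, with 1101 to 1300.0 without TCM peri-tumor 1 or 3 or control peri-tumor 1, 2 or 3 and 3228 without control peri-tumor 4; 8 to 10 of the 10 genes were called. In tumors, DESeq2 called 1805, limma-voom 2193, no filter 687 and leaving out control mouse 4 gave 1877, and single libraries 404 to 1250.0, with 404 to 665 without TCM tumor 1 or 3 or control tumor 1, 2 or 3. Of the 10 genes, 2 were called from the tumor groups alone, and 1 to 5 without a single library. For the difference, DESeq2 called 806 genes and 5 of the 10, limma-voom 603 and 4, no filter 79 and 0, the 1 CPM filter 1 of the 10, and leaving out control mouse 4 gave 714 and 2. Single libraries left out gave 58 to 665 genes, with 665 without control peri-tumor 4, and 0 to 2 of the 10. The difference could not be had from only 2 groups.

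With 4 mice per group, small differences such as that of Stat3 rest on few samples, and Socs3 rests on as few as 33 reads. Protein levels and phosphorylated STAT3 were not measured, so no value here gives the activity of the pathway. Control mouse 4 weighs on the levels of most of the 10 genes in peri-tumor liver. Without its peri-tumor library 10 of the 10 were called lower in TCM mice. Over the alternative settings that log2 fold change ran from -2.23 to -1.55 for Apcs and from -2.15 to -1.46 for Hp.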
